A study of Mus musculus with 8 samples.

Results

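Ang and Rnase4 are neighbouring mouse genes that overlap on chromosome 14 and encode the secreted ribonucleases angiogenin and RNase 4. They were chosen by gene symbol, and they are 2 of the 34399 symbols in the count tables of fibroblasts sorted from pressure-overloaded mouse hearts. Each symbol had 1 entry in each table. The choice was made with Ang's difference in the Smad2/3 comparison already known, so the values of that comparison are given as a description with no test, and the Tgfbr1/2 comparison was tested.

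Messenger RNA levels were measured in 4 groups of 2 libraries each. Smad2/3 DKO fibroblasts carried homozygous loxP-flanked alleles of Smad2 and Smad3 (flox/flox) and a tamoxifen-dependent Cre (MerCreMer) knocked into the Postn locus. Their Postn-Cre controls were Cre-positive, with no floxed allele listed in the labels. Tgfbr1/2 DKO fibroblasts carried flox/flox alleles of both TGFβ receptor genes and MerCreMer in the Tcf21 locus, and for their Tcf21-Cre controls the labels list the Cre and no floxed allele. All 4 groups also carried a Cre-dependent eGFP reporter in the Rosa locus, received tamoxifen at 100 mg/kg on 2 days and then in chow at 40 mg/kg, and underwent transverse aortic constriction at 8 to 10 weeks of age. GFP-positive cells were sorted from the ventricles 4 weeks later, so Postn-Cre marks cells that switched on the activation gene Postn, and Tcf21-Cre marks cells of the resident fibroblast lineage. Each comparison had its own sequencing run, Cre driver and pair of targeted genes, which cannot be told apart when the comparisons are set side by side, and no control library was shared. The labels do not say whether a library came from 1 animal or a pool, so a p-value here reflects the spread between sequenced libraries, which may be technical. HK numbers name the libraries and pair nothing.

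Angiogenin belongs to the RNase A family and was named for its ability to induce blood vessel growth. It is taken up by cells, stimulates ribosomal RNA transcription in the nucleolus and, under stress, cuts transfer RNAs in the anticodon loop. RNase 4 is a sister enzyme that prefers to cut RNA after uridine. The genes are known to be transcribed from shared promoters, with an untranslated first exon spliced to a coding exon that belongs to one gene or the other. In TGFβ signalling, the type II receptor (Tgfbr2) recruits the type I receptor (Tgfbr1), which phosphorylates Smad2 and Smad3, and these enter the nucleus with Smad4.

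In the GENCODE annotation of GRCm38, the assembly of mm10, Rnase4 (ENSMUSG00000021876) spans chr14:51091077-51106151 and Ang (ENSMUSG00000072115) spans chr14:51091150-51102009, both on the plus strand. Each gene has 2 annotated transcripts. Rnase4-201 and Ang-202 begin in an upstream first exon that ends at the same base, 51091253, and Rnase4-202 and Ang-201 begin in a downstream first exon that ends at the same base, 51096473. The coding sequence of Ang lies at chr14:51101404-51101838 and that of Rnase4 at chr14:51104821-51105264, each within the last exon of its own gene. The genes therefore share untranslated exon sequence and no coding sequence. Of 1202 exonic bases of Ang, 219 were also exonic in Rnase4 (18.2%), and these were 13.4% of the 1637 exonic bases of Rnase4.

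**Figure D1:**
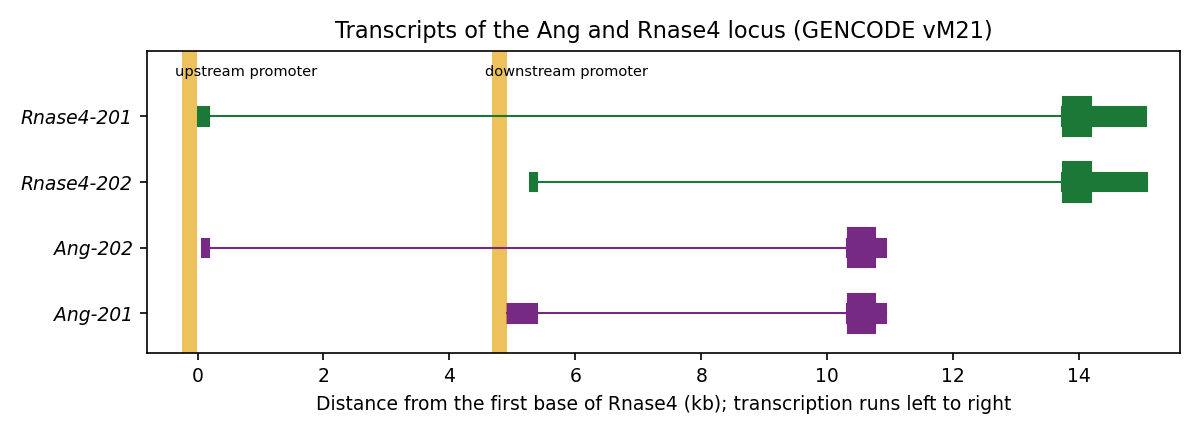
Transcripts of Ang (purple) and Rnase4 (green) drawn to scale against the distance from the first base of Rnase4 in kb; thin boxes are untranslated exon sequence, tall boxes coding sequence, lines introns and yellow bands the 250-base promoter windows. Each gene has a transcript that begins at or shortly after each window, and their coding sequences sit in separate last exons.

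The 2 promoter windows are shown because every annotated Ang and Rnase4 transcript begins at or shortly after the end of one of them. They are the 250 bases before a start site in the RefSeq promoter table (GRCm38.p6, plus strand, 5′ to 3′), with matches to CAGAC on either strand (GTCTG when read on the plus strand) and to CCAAT in capitals. The upstream window is chr14:51090827-51091076, listed for both genes, and the downstream window is chr14:51095750-51095999, listed for Rnase4 and ending 1 base before the GENCODE start of Ang-201.
Upstream promoter: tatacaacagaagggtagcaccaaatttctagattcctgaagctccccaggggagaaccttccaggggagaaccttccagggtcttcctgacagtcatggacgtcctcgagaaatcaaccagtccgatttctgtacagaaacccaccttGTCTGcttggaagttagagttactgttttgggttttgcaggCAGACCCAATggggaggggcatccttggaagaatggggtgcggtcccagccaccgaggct
Downstream promoter: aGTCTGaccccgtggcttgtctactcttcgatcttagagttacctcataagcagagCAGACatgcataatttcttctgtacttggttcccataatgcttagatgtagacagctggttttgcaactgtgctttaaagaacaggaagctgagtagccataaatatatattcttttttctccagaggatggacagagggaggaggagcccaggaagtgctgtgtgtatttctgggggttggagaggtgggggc
CAGAC is the short motif that Smad3 and Smad4 are known to bind. It occurred at 2 places in the upstream window, beginning 101 and 60 bases before the start, and at 2 places in the downstream window, beginning 249 and 194 bases before the start. Of 32817 mouse promoter windows of that length, 42.2% held it at 1 or more places, and the share with 2 or more was not counted. CCAAT, bound by NF-Y, occurred once, beginning 55 bases before the upstream start and adjoining the second CAGAC without overlap; 33.8% of windows held it. Neither window held the palindromic Smad element GTCTAGAC (0.168% of windows), TATAAA (12.4%), the GC box GGGCGG (32.7%) or the AP-1 site TGANTCA (6.75%), each searched on both strands. A match is a string of letters and no evidence of binding.

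Ang differed strongly between the groups, and in opposite directions in the 2 comparisons: it was 12.3-fold higher on average in Smad2/3 DKO fibroblasts than in their controls and 2.95-fold lower in Tgfbr1/2 DKO fibroblasts than in theirs. Rnase4, whose first exons overlap those of Ang, was 1.47-fold and 1.61-fold higher on average in the 2 DKO groups. The split between the genes therefore moved far more than their sum. Ang was at most 12.3% of the counts of both genes in any library, so the sum mostly followed Rnase4. In these bulk libraries, fewer cells of a type and less RNA per cell cannot be told apart.

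Ang, the angiogenin gene, had 34.3 CPM in HK15 and 31.4 CPM in HK16 of the Smad2/3 DKO group, against 3.23 CPM in HK3 and 2.13 CPM in HK4 of the Postn-Cre controls. CPM is the count scaled to the library's total count, and these values rest on 876 and 675 counts in the DKO libraries against 84 and 49 in the control libraries. Both DKO libraries lay far above both controls. The means were 32.9 ± 2.04 CPM in Smad2/3 DKO and 2.68 ± 0.777 CPM in Postn-Cre controls (SD, n = 2 each). The fitted log2 fold change was 3.55 ± 0.36 (SE). In this comparison 25.4% of 15760 tested genes had both DKO libraries above both controls, 1.29% were called at an adjusted p below 0.05 (0.451% higher and 0.844% lower), and 0.641% had a log2 fold change at or above that of Ang, whose choice used this contrast. Leaving out 1 library at a time gave log2 values of 3.28 to 3.90 for Ang.

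Ang had the opposite pattern in the Tgfbr1/2 comparison, with 5.86 CPM in HK2 and 5.58 CPM in HK4 of the DKO group (191 and 167 counts), against 20.8 CPM in HK6 and 13.0 CPM in HK7 of the Tcf21-Cre controls (607 and 380 counts). Both DKO libraries lay below both controls, and the controls differed from each other more than the DKO libraries did. The means were 5.72 ± 0.199 CPM in Tgfbr1/2 DKO and 16.9 ± 5.51 CPM in Tcf21-Cre controls (SD, n = 2 each). Ang fell by 1.47 ± 0.29 on the log2 scale, with an adjusted p of 0.0235 in edgeR's quasi-likelihood test. Of 16658 genes tested here, 29.4% had both DKO libraries below both controls, 3.96% were called (2.64% higher and 1.31% lower), and 2.86% had a log2 fold change as low as Ang's or lower. The call was lost without DKO HK2 (adjusted p = 0.0772), without DKO HK4 (adjusted p = 0.0871) and without control HK6, where the log2 value was -1.15 (adjusted p = 0.0999); without control HK7 it was -1.72 (adjusted p = 0.0289).

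**Figure D2:**
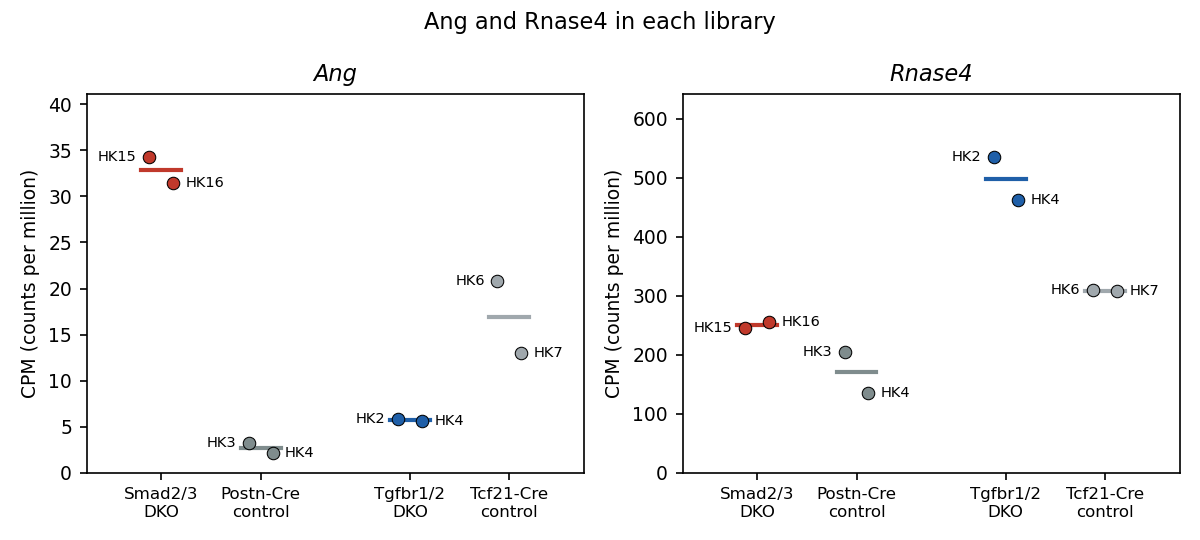
CPM of Ang (left) and Rnase4 (right) in each library, with points for the 2 libraries of a group, named by HK number, and a line at their mean; both axes are linear and start at 0. Ang was high in Smad2/3 DKO and Tcf21-Cre control libraries and low in the other 4, whereas Rnase4 was higher in both DKO groups than in their controls.

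By their mean level of Ang, the groups ranked, from the highest down, Smad2/3 DKO, Tcf21-Cre control, Tgfbr1/2 DKO and Postn-Cre control. The control groups themselves stood apart, with Tcf21-Cre controls 6.30-fold above Postn-Cre controls. Run and Cre driver both differ between these controls and cannot be told apart. The log2 change in the Smad2/3 comparison minus that in the Tgfbr1/2 comparison was 5.01 ± 0.47 for Ang in the fit of all 8 libraries, given without a test because the first of them chose the gene; among 17770 genes in that fit, 1.83% were called (0.664% higher and 1.17% lower). The authors' deposited table lists a log2 fold change for Ang of 3.65 in the Smad2/3 comparison and of -1.53 in the Tgfbr1/2 comparison.

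Rnase4, the gene of RNase 4, had 246 CPM in HK15 and 256 CPM in HK16 of the Smad2/3 DKO group, against 205 CPM in HK3 and 135 CPM in HK4 of the Postn-Cre controls. Both DKO libraries were above both controls, as in 25.4% of tested genes, and the controls were far apart. The means were 251 ± 7.52 CPM in Smad2/3 DKO and 170 ± 49.7 CPM in Postn-Cre controls (SD, n = 2 each), and the log2 fold change was 0.50 ± 0.20 (SE). This value depended on which control was used: the log2 fold change was 0.86 without control HK3 and 0.22 without control HK4.

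Rnase4 in the Tgfbr1/2 comparison had 536 CPM in HK2 and 461 CPM in HK4 of the DKO group, against 309 CPM in HK6 and 308 CPM in HK7 of the Tcf21-Cre controls. The groups did not overlap, as in 21.8% of tested genes in this direction. The means were 498 ± 52.4 CPM in Tgfbr1/2 DKO and 309 ± 0.763 CPM in Tcf21-Cre controls (SD, n = 2 each). The log2 fold change of 0.77 ± 0.20 missed the threshold in edgeR (adjusted p = 0.0573). It passed in DESeq2 (0.76, adjusted p = 0.00669) and in edgeR without the filter on low counts (0.77, adjusted p = 0.0199). By their mean level of Rnase4, the groups ranked, from the highest down, Tgfbr1/2 DKO, Tcf21-Cre control, Smad2/3 DKO and Postn-Cre control. Smad2/3 DKO fibroblasts, which had the most Ang, were thus next to the lowest in Rnase4, and Tgfbr1/2 DKO fibroblasts, with the most Rnase4, were next to the lowest in Ang. In Rnase4, both groups of the Tgfbr1/2 comparison had higher means than both groups of the Smad2/3 comparison. Run and Cre driver differ between the comparisons, and a relation between the levels of the genes was not tested. The log2 change in the Smad2/3 comparison minus that in the Tgfbr1/2 comparison was -0.28 ± 0.29 for Rnase4, which is less than its SE. The authors' deposited table lists a log2 fold change for Rnase4 of 0.591 in the Smad2/3 comparison and of 0.687 in the Tgfbr1/2 comparison.

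**Figure D3:**
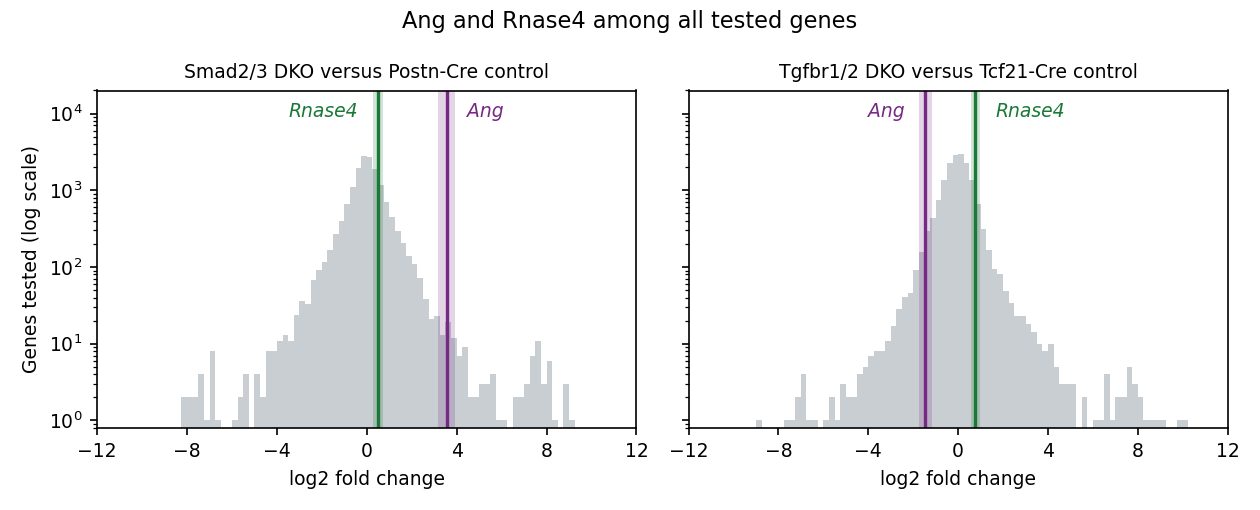
Number of tested genes (log scale) by log2 fold change in bins of 0.25, for Smad2/3 DKO against Postn-Cre control (left) and Tgfbr1/2 DKO against Tcf21-Cre control (right), with lines at Ang and Rnase4 and bands of ± 1 SE. Ang lay far out on the right at 3.55 in the first comparison and on the left at -1.47 in the second, while Rnase4 lay to the right of 0 in both, at 0.50 and 0.77.

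Reads in the shared first exons could be given to either gene, so the sum of both was also fitted. Ang and Rnase4 together had 280 and 288 CPM in Smad2/3 DKO libraries, against 209 and 137 CPM in Postn-Cre controls. They had 541 and 467 CPM in Tgfbr1/2 DKO libraries, against 330 and 321 CPM in Tcf21-Cre controls. The sum was higher in both DKO groups, by a log2 value of 0.65 ± 0.20 in the Smad2/3 comparison and of 0.71 ± 0.19 in the Tgfbr1/2 comparison, where the adjusted p was 0.0756. The sum's log2 change in the Smad2/3 comparison minus that in the Tgfbr1/2 comparison was -0.06 ± 0.29, against 5.01 ± 0.47 for Ang. Since Ang was at most 12.3% of the sum in any library, the sum mostly followed Rnase4. It does not show how shared reads were divided.

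Ang made up 12.3% of the counts of the locus in HK15 (95% Wilson interval 11.5% to 13.0%) and 10.9% in HK16 (10.2% to 11.7%) of the Smad2/3 DKO group, against 1.55% in HK3 (1.25% to 1.91%) and 1.55% in HK4 (1.18% to 2.05%) of the Postn-Cre controls. The DKO shares were above those of the controls, which is a description only, because Ang was chosen by its difference in these libraries. The control shares were nearly the same in both libraries, although the controls' levels of each gene differed 1.52-fold. In the Tgfbr1/2 DKO group the share was 1.08% in HK2 (0.940% to 1.25%) and 1.19% in HK4 (1.03% to 1.39%), against 6.30% in HK6 (5.83% to 6.80%) and 4.05% in HK7 (3.67% to 4.47%) of the Tcf21-Cre controls. Here both DKO intervals lay below both control intervals, and the intervals of the 2 controls did not meet. The group means were 11.6% ± 0.942 in Smad2/3 DKO and 1.55% ± 0.00347 in Postn-Cre controls, and 1.14% ± 0.0794 in Tgfbr1/2 DKO and 5.17% ± 1.59 in Tcf21-Cre controls (SD, n = 2 each). The low shares of Tgfbr1/2 DKO and Postn-Cre control libraries had intervals that overlapped in part. Intervals cover at most counting error. They take counts as independent, whereas reads amplified by PCR are not independent molecules and these counts are rounded expected counts. The intervals may therefore be too narrow.

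**Figure D4:**
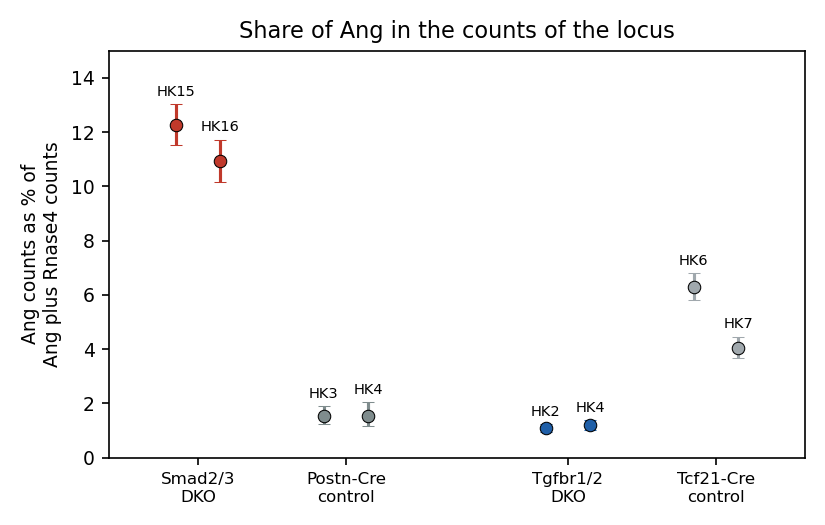
Ang counts as a percentage of Ang plus Rnase4 counts in each library. Bars are 95% Wilson intervals, which cover at most counting error and may be too narrow. Smad2/3 DKO libraries stand at 10.9% and 12.3% and Postn-Cre controls at 1.55%, whereas Tgfbr1/2 DKO libraries stand at 1.08% and 1.19% and Tcf21-Cre controls at 4.05% and 6.30%.

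Per length, Rnase4 was the more abundant gene in every library. Levels per kilobase of exon averaged 27.3 CPM per kb for Ang and 153 CPM per kb for Rnase4 in Smad2/3 DKO, against 2.23 and 104 CPM per kb in Postn-Cre controls. They averaged 4.76 CPM per kb for Ang and 305 CPM per kb for Rnase4 in Tgfbr1/2 DKO, against 14.1 and 189 CPM per kb in Tcf21-Cre controls. The ratio of Rnase4 to Ang per exonic base was 5.26 and 5.99 in Smad2/3 DKO libraries, against 46.7 and 46.5 in Postn-Cre controls. It was 67.1 and 60.7 in Tgfbr1/2 DKO libraries, against 10.9 and 17.4 in Tcf21-Cre controls.

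Part of the annotated sequence is shared between the genes. Of the 1152 stretches of 50 bases in Ang transcripts, 123 also occurred in Rnase4 (10.7%), and these were 7.75% of the 1587 stretches of Rnase4. A further 44 stretches of Ang (3.82%) occurred in its paralog Ang2 and in no other gene, and no stretch of Rnase4 occurred in a gene other than Ang. Ang2 had at most 1 count in any library. Rnase4 had many more counts than Ang in every library, with 9027 and 9005 against 607 and 380 of Ang in the Tcf21-Cre controls. The reads of its shared stretches could be as many as all counts of Ang in the Postn-Cre controls. The same holds in both groups of the Tgfbr1/2 comparison. The part of shared reads in the differences of Ang was not tested. No strand-marking step is described, and how the authors divided reads between overlapping genes is not stated in the labels or file headers. The tables count whole genes, so which of the 2 promoters or transcripts carried the counts was not measured.

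Ang and Rnase4 were the only RNase A family genes above 1 CPM among the 20 of the family list in the tables. The other 18 stayed below 1 CPM in every library, and 7 of them had no count in any library. The highest was Rnase10, expressed in the epididymis, at 0.783 CPM, where 3 counts amount to 0.0920 to 0.140 CPM depending on the library. The angiogenin paralogs Ang2, Ang4, Ang5 and Ang6, which mouse has and human lacks, had at most 1 count in a library. Counts of the family in these cells thus came almost entirely from Ang and Rnase4 in all 4 groups. Most were of Rnase4, with Ang at 1.08% to 12.3% of the counts of both genes in a library.

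Of 18 other genes of the tables within 200 kb of Ang, 6 were tested in the Smad2/3 comparison, and 1 of them, Pnp, was called higher, beside 0.451% of all genes tested. Pnp, the purine salvage enzyme purine nucleoside phosphorylase, lies 128 kb before Ang and had 500 and 458 CPM in Smad2/3 DKO libraries, against 187 and 170 CPM in Postn-Cre controls. It rose by a log2 value of 1.37 ± 0.15 (adjusted p = 0.00208 in edgeR) and stayed called without each library in turn. It had 158 and 199 CPM in Tgfbr1/2 DKO libraries, against 199 and 162 CPM in Tcf21-Cre controls, which overlapped (0.08 ± 0.21, adjusted p = 0.874). GENCODE names this gene ID Gm49342, and it overlaps the near-identical Pnp2, so the division of reads between them is uncertain; Pnp2 was at 0.01 in the Smad2/3 comparison and 0.35 in the Tgfbr1/2 comparison. Apex1, a DNA repair endonuclease, was at 0.50 and 0.29, and Osgep, a tRNA-modifying enzyme, at 0.19 and -0.28 on the log2 scale in the same order of comparisons. Tmem55b, a lysosomal phosphoinositide phosphatase, was at 0.58 and -0.38. Of the 18 genes, 7 were tested in the Tgfbr1/2 comparison, and edgeR called 0, beside 3.96% of all genes tested. Of these 7, 0 had an unadjusted p below 0.05 and DESeq2 called 0, beside 3332 and 1134 of all 16658 genes tested. The median log2 fold change of the tested neighbours was 0.54 in the Smad2/3 comparison and 0.09 in the Tgfbr1/2 comparison, where all tested genes had medians of 0.01 and -0.01.

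**Figure D5:**
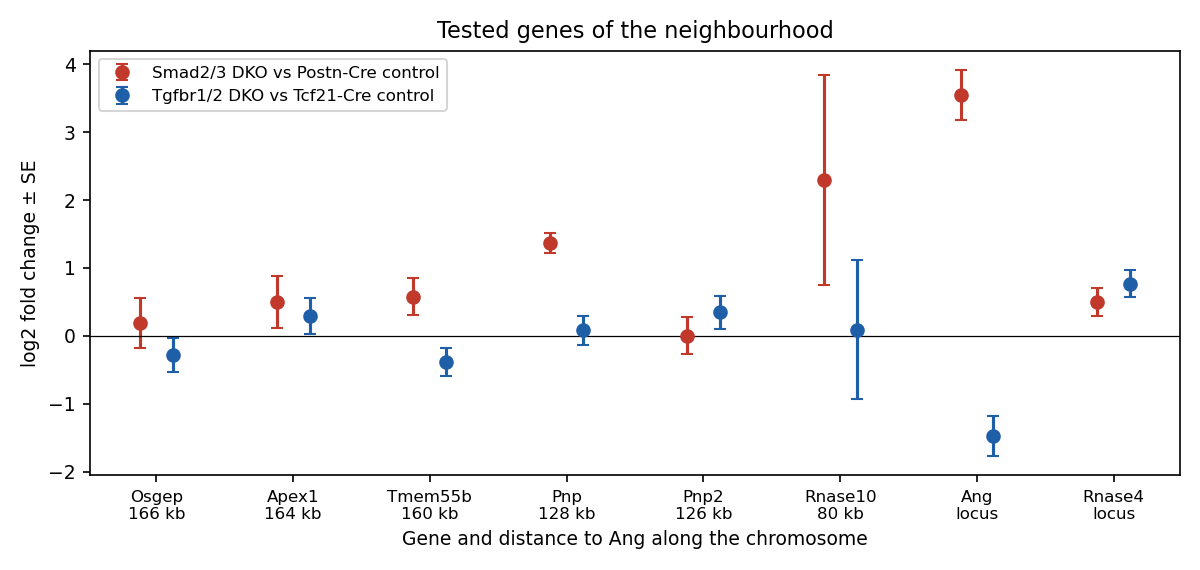
Log2 fold change ± SE of Ang, Rnase4 and the 6 genes within 200 kb that were tested in both comparisons, ordered along the chromosome with their distance to Ang in kb, for Smad2/3 DKO against Postn-Cre control (red) and Tgfbr1/2 DKO against Tcf21-Cre control (blue). Ang had the widest gap between the comparisons, and the Rnase10 bars are long because it had under 1 CPM.

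Angiogenin acts through other proteins, and 10 of their genes were taken as a list of partners. The cytosolic ribonuclease inhibitor Rnh1, which binds and blocks angiogenin and RNase 4, had 24.8 and 30.3 CPM in Smad2/3 DKO libraries, against 45.7 and 44.0 CPM in Postn-Cre controls (log2 -0.76 ± 0.25, adjusted p = 0.177). It had 95.4 and 140 CPM in Tgfbr1/2 DKO libraries, against 72.6 and 63.6 CPM in Tcf21-Cre controls (log2 0.88 ± 0.23, adjusted p = 0.0673). The groups did not overlap in either comparison, as in 18.9% of tested genes lower in Smad2/3 DKO and 21.8% higher in Tgfbr1/2 DKO. Rnh1 missed the threshold in both comparisons, and its sign was opposite to that of Ang in both. In the fit of all 8 libraries, its change in the Smad2/3 comparison minus that in the Tgfbr1/2 comparison was -1.66 ± 0.33 (adjusted p = 0.0328 in edgeR). Run and Cre driver also differ between the comparisons. Plxnb2, a receptor for angiogenin, was at -0.47 in the Smad2/3 comparison (adjusted p = 0.488) and at 0.27 in the Tgfbr1/2 comparison (adjusted p = 0.52). Sdc4, a syndecan reported to bind angiogenin, was at 0.03 in the Smad2/3 comparison (adjusted p = 0.967) and at 0.75 in the Tgfbr1/2 comparison (adjusted p = 0.081). Egfr, reported as another angiogenin receptor, was at -0.44 in the Smad2/3 comparison (adjusted p = 0.213) and at 0.27 in the Tgfbr1/2 comparison (adjusted p = 0.485). Fst, the activin-binding protein follistatin, was at 0.97 in the Smad2/3 comparison (adjusted p = 0.107), with 39.8 and 44.4 CPM in DKO libraries against 18.8 and 22.6 CPM in controls, and at -0.06 in the Tgfbr1/2 comparison. The tRNA methyltransferases Nsun2 and Trdmt1, whose marks are known to protect tRNA from angiogenin, were at 0.05 and -0.74 in the Smad2/3 comparison and at -0.02 and 0.47 in the Tgfbr1/2 comparison. The matrix protein gene Fbln1 was at 0.43 in the Smad2/3 comparison and -0.33 in the Tgfbr1/2 comparison, the RNA-binding protein gene Ybx1 at -0.10 and 0.36, and the actinin gene Actn2 at -0.97 and 0.36.

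EdgeR called 0 of the 10 partners in either comparison, beside 1.29% of all tested genes in the Smad2/3 comparison and 3.96% in the Tgfbr1/2 comparison. In the Smad2/3 comparison 4 had an unadjusted p below 0.05 and DESeq2 called 2 (Rnh1 and Fst), beside 2137 and 769 of all 15760 genes tested. In the Tgfbr1/2 comparison 2 had an unadjusted p below 0.05 and DESeq2 called both (Rnh1 and Sdc4), beside 3332 and 1134 of all 16658 genes tested. The partners' median log2 fold changes were -0.27 in the Smad2/3 comparison and 0.31 in the Tgfbr1/2 comparison. Of the factors reported to regulate the locus, the insulator protein gene Ctcf was at log2 0.36 in the Smad2/3 comparison (adjusted p = 0.54) and -0.18 in the Tgfbr1/2 comparison (adjusted p = 0.667). The cohesin subunit Rad21 was at log2 0.08 in the Smad2/3 comparison (adjusted p = 0.907) and -0.28 in the Tgfbr1/2 comparison (adjusted p = 0.465), so neither gene passed the test in edgeR.

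A list of 14 other secreted angiogenic factors was set beside Ang. Of 13 tested in the Smad2/3 comparison, where 0.844% of all tested genes were called lower, 2 fell: the fibroblast growth factor Fgf1 (log2 -1.76, adjusted p = 0.0387) and Angptl4, a lipase inhibitor (log2 -2.17, adjusted p = 0.0156). The others ran from -1.05 for Cxcl12 to 1.43 for Pgf, and DESeq2 called 3, adding Cxcl12, beside 769 of all genes tested. Of 14 tested in the Tgfbr1/2 comparison, where 2.64% of all tested genes were called higher and 1.31% lower, 4 rose: Angptl4 (log2 3.08, adjusted p = 7.29e-05), the chemokine Cxcl12 (log2 1.65, adjusted p = 0.00276), placental growth factor Pgf (log2 1.43, adjusted p = 0.00931) and Figf, which encodes VEGF-D (log2 0.98, adjusted p = 0.0482). The angiopoietins Angpt1 (log2 -0.95, adjusted p = 0.0459) and Angpt2 (log2 -1.53, adjusted p = 0.023) fell. The other 8 ran from -1.19 for Angpt4 to 0.61 for Hgf. The list's median log2 fold changes were 0.01 in the Smad2/3 comparison and 0.27 in the Tgfbr1/2 comparison. These genes were named after their values were seen, and only the calls of Cxcl12, Pgf and Angptl4 in the Tgfbr1/2 comparison stood without each library in turn.

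The genes whose log2(CPM + 1) followed Ang most closely over the 8 libraries, among 10198 symbols with a mean of at least 5 CPM, were Pyroxd1, an oxidoreductase (Pearson r = 0.963), Hnrnph3, a splicing protein (r = 0.957), 6330408A02Rik (r = 0.946), Ppip5k2, an inositol phosphate kinase (r = 0.944), and Recql, a DNA helicase (r = 0.936). Pyroxd1 and Recql overlap on opposite strands of chromosome 6, so their reads may not be separate. Rnase4 ranked 3449 by its r of 0.172 with Ang. The closest to Rnase4 were the aminopeptidase Rnpep (r = 0.991), the tubulin Tuba1b (r = 0.988), the microsomal glutathione transferase Mgst1 (r = 0.987), the ribosomal protein gene Rpl36al (r = 0.986) and the secreted guidance protein Slit3 (r = 0.984). These coefficients describe 8 libraries that fall into 4 groups and 2 runs, and libraries of a group share both.

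Libraries held 21477646 to 32594474 counts. Fibroblast markers were abundant in all libraries, with a summed level of 7 genes of 14115 to 14515 CPM in Smad2/3 DKO and 15983 to 18289 CPM in Postn-Cre controls, and of 23235 to 24223 CPM in Tgfbr1/2 DKO and 26612 to 33259 CPM in Tcf21-Cre controls. None of the targeted genes passed the test on whole-gene counts: Smad2 was at log2 -0.19 (adjusted p = 0.747) and Smad3 at -0.26 (adjusted p = 0.702) in the Smad2/3 comparison, while in the Tgfbr1/2 comparison the type I receptor gene Tgfbr1 was at -0.24 (adjusted p = 0.533) and the type II receptor gene Tgfbr2 at 0.25 (adjusted p = 0.535). The labels do not give the floxed exons, and whole-gene counts do not check their loss. Of 8 myeloid markers, 5 were called higher in Tgfbr1/2 DKO (6 at an unadjusted p below 0.05, 6 by DESeq2), beside 2.64% of all genes called higher by edgeR. Their sums were 182 to 205 CPM in Tgfbr1/2 DKO against 57.2 to 78.2 CPM in Tcf21-Cre controls. The 5 epicardial markers summed to 427 to 444 CPM in Tgfbr1/2 DKO and 46.3 to 83.9 CPM in Tcf21-Cre controls, with 1 called higher (3 at an unadjusted p below 0.05, 1 by DESeq2). The 10 endothelial markers summed to 507 to 529 CPM and 399 to 443 CPM, with 1 called higher (5 at an unadjusted p below 0.05, 3 by DESeq2). The 5 erythroid markers summed to 46.9 to 135 CPM and 26.1 to 42.7 CPM, with 0 called by edgeR (3 at an unadjusted p below 0.05, 4 by DESeq2). Of all 16658 genes tested in this comparison, 3332 had an unadjusted p below 0.05 and DESeq2 called 1134. In the Smad2/3 comparison the endothelial sum was 144 to 224 CPM in DKO and 234 to 451 CPM in controls, with 0 called by edgeR (5 at an unadjusted p below 0.05, 1 by DESeq2). Of all 15760 genes tested in this comparison, 2137 had an unadjusted p below 0.05 and DESeq2 called 769. The 8 cardiomyocyte markers summed there to 126 to 127 CPM in DKO and 182 to 211 CPM in controls, with 0 called by edgeR (5 at an unadjusted p below 0.05, 1 by DESeq2). The 5 epicardial markers summed to 36.5 to 39.4 CPM in Smad2/3 DKO and 60.9 to 70.2 CPM in Postn-Cre controls, with 0 of 3 tested called by edgeR (2 at an unadjusted p below 0.05, 1 by DESeq2). Of 7 pericyte and smooth muscle markers 1 was called lower (658 to 879 CPM in Smad2/3 DKO and 753 to 1399 CPM in Postn-Cre controls), and of the 7 fibroblast markers 2 were, the collagen genes Col1a1 (log2 -1.69, adjusted p = 0.0011) and Col1a2 (log2 -1.44, adjusted p = 0.0011), named after their values were seen. EdgeR called 0.844% of all genes tested lower in this comparison. Each marker of these lists had counts in the groups named. Xist, the RNA that silences an X chromosome, had 277 and 75.3 CPM in Smad2/3 DKO libraries against 3.65 and 2.18 CPM in Postn-Cre controls, and all 8 libraries had counts of Y-linked genes. The part of these differences in the values of Ang and Rnase4 was not tested.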

How the data were processed

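RNA from the sorted cells went through NuGEN Ovation amplification, Nextera XT library preparation and HiSeq2500 sequencing, per the labels' protocols. The authors deposited expected counts per gene for each library, called raw in the file headers, and only 13.4% of values above 0 were whole (tolerance 0.001). The build was mm10 (submitters' processing notes), and the aligner and counter were not given in the sources used here. Deposited beside the counts were log2 values per library and the authors' log2 fold change per gene, per the file headers, of which the fold change is quoted.

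Expected counts were rounded, and entries of the same symbol summed (278 symbols from 3966 entries; 38087 entries in all). CPM divides a count by the library total. The 4 libraries of a comparison were fitted together in edgeR 4.0.16 (R 4.3.3; TMM, filterByExpr, robust quasi-likelihood F test), and the difference between the comparisons to all 8, with Benjamini-Hochberg adjustment over all tested symbols and a threshold of 0.05. The SE is the log2 fold change divided by the root of F. DESeq2 1.42.0, RLE size factors, library totals alone, no filter, no robust estimation, unsummed entries and leaving out each library were alternatives; library totals were added after seeing the data. Neighbours came from GENCODE vM21, which held 95.3% of the gene IDs, and promoters from RefSeq.

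The members and lists were chosen with earlier results of these data known. Named genes by rule are the members, the targeted genes, the RNase A family and partner lists, neighbours within 200 kb and the 5 genes most correlated with each member, with Xist as a fact of the libraries. The angiogenic factors, locus regulators and collagen genes were named outside that rule, after their values were seen. One gene of the regulator list is not reported here.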

Additional observations from a re-analysis of the deposited data

Results flagged for a closer look

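Ang moved in opposite directions in the 2 comparisons: both Smad2/3 DKO libraries were above both Postn-Cre controls, and both Tgfbr1/2 DKO libraries were below both Tcf21-Cre controls. Its log2 fold change in the first comparison minus that in the second was 5.01. The difference was not tested, because the Smad2/3 comparison was used to choose the gene. Of 15017 genes tested in both comparisons, 26 were called in both, and 15 of these had opposite signs. Of the 15, 10 were higher in Smad2/3 DKO and lower in Tgfbr1/2 DKO, so opposite movement was not particular to Ang. These numbers include Ang, which the Smad2/3 comparison chose, so its place among them is no test.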

How the results depend on the processing

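No paired analysis was possible because the compared groups share no replicate numbers. In the Smad2/3 comparison, leaving out 1 library gave log2 values of 3.28 to 3.90 for Ang, 0.22 to 0.86 for Rnase4 and 0.38 to 1.01 for their sum. The Tgfbr1/2 comparison gave -1.72 to -1.15 for Ang (adjusted p = 0.0289 to 0.0999), 0.73 to 0.83 for Rnase4 and 0.68 to 0.75 for the sum, the last 2 uncalled throughout. The other alternatives kept Ang between -1.56 and -1.46 and called (adjusted p = 0.000455 to 0.0474). Rnase4 passed the threshold without the low-count filter (0.77, adjusted p = 0.0199) and in DESeq2 (0.76, adjusted p = 0.00669), and so did the sum (0.71, adjusted p = 0.0355; 0.70, adjusted p = 0.0146). The difference between the comparisons ranged from 4.67 to 5.37 for Ang, from -0.57 to 0.084 for Rnase4 and from -0.36 to 0.30 for the sum, changing sign for the last 2 without Postn-Cre control HK3; for the sum it was also 0.08 with library totals alone, which moved the median of all genes by 0.15. Pnp in the Tgfbr1/2 comparison, uncalled throughout, was -0.015 with library totals alone, and without 1 library it ran from -0.17 to 0.31 (-0.17 without DKO HK4 and -0.0025 without control HK7). The number of called genes in the Smad2/3 comparison was 204, against 819 without the filter, 769 in DESeq2 and 105 to 297 without 1 library. For the Tgfbr1/2 comparison it was 659, against 1233, 1134, 299 in the fit of all 8 libraries, and 271 to 484 without 1 library. For the difference it was 326, against 1194, 1146 and 89 to 302. The cause was not tested. Ang rests on as few as 49 counts in a library, which limits the precision of its share.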
